A study of Mus musculus with 45 samples.

Results

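A set of 9 digestive enzymes of the epithelial brush border were followed across the colons of control, obese and formerly obese mice. The genes were Sis, Lct, Mgam and Treh (disaccharidases), Anpep, Enpep and Dpp4 (exopeptidases) and Mep1a and Mep1b (meprins), which made 9 of 24918 gene entries in the RNA-seq count table. They were chosen by symbol, with the values of these same libraries and the results of the 3 group comparisons already known. Their values are therefore a description throughout, with no p-value printed between groups, and which of them met the study's cutoffs in the fit over all genes is given as part of that description. Of the 9 genes, 8 passed the filter on low counts and Lct did not.

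All mice were male C57BL/6 per the labels (C57BL/6J in the study's methods), were 6 weeks old when the diets began and stayed on them for 20 weeks. Control mice (LF) ate the diet labelled 10% fat throughout, and obese mice (HF) the diet labelled 60% fat. Formerly obese mice (HFLF) ate the 60% fat diet for 15 weeks and then the 10% fat diet for 5 weeks. RNA-seq covered 5 mice per group. The epithelium of the entire colon was released with EDTA, so each library averaged over proximal and distal colon and over every epithelial cell type.

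Brush border enzymes sit on the microvilli of absorptive cells, with their active sites facing the gut lumen. Disaccharidases split sucrose, maltose, lactose and trehalose into single sugars, exopeptidases remove residues from the ends of peptides, and meprins are metalloendopeptidases that cut inside proteins. Sugar digestion is the work of the small intestine, and most of these genes are best known from there. Meprins are also well known from the colon, and mucus and cytokines are among the targets described for meprins in the gut.

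The 15 RNA-seq libraries held 15230391 to 22762095 counts, the largest being formerly obese replicate 3. The 9 enzymes together took 0.125% to 0.148% of the counts of a library, of which Mep1a gave 44.9% to 51.3%. Colonocyte markers were abundant in every library, with 7156 to 16333 CPM (counts scaled to library size) summed over 7 genes. Markers of other cell types were uneven within their lists. Of the small intestinal genes, Apob (363.1 to 634.5 CPM) and Fabp2 (260.3 to 687.4 CPM) were well covered, while Apoa1 and Apoa4 stayed at or under 0.735 CPM. Of the Paneth cell genes, Ang4 lay at 28.6 to 190.5 CPM, while the defensins Defa17 and Defa24 were at 0 counts in all libraries. Of the pancreatic genes, Cela1 lay at 285.1 to 613.3 CPM, while Cpa1 and Pnlip were at 0, as were the adipocyte genes Lep and Plin1.

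Promoter sequences of 8 of the 9 genes were found in the RefSeq table (GRCm38.p6), each running from 250 bases before to 50 bases after the gene start of that table. For 6 genes this start is the one in the count table, while for Sis it lies 997 bases and for Anpep 5.86 kb upstream of it. Sis, Enpep and Mep1a are shown because each met the study's cutoffs in one comparison or more. The capitals mark TTTAT, the core of the sites of caudal-type factors such as Cdx2, read on both strands. All 3 genes lie on the minus strand, and the sequences are written along it.
Sis promoter (chr3:72967814-72968113): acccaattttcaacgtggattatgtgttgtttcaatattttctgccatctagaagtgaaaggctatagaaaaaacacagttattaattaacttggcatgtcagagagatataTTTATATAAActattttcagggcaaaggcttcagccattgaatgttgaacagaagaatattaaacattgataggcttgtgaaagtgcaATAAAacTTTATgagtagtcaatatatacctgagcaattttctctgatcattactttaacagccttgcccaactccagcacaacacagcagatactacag
Enpep promoter (chr3:129332700-129332999): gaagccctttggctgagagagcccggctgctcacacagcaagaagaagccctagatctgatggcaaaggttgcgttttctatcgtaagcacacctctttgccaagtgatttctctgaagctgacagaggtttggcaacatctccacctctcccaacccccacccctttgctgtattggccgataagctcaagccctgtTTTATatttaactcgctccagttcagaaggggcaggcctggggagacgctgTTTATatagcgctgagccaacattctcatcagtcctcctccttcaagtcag
Mep1a promoter (chr17:43502724-43503023): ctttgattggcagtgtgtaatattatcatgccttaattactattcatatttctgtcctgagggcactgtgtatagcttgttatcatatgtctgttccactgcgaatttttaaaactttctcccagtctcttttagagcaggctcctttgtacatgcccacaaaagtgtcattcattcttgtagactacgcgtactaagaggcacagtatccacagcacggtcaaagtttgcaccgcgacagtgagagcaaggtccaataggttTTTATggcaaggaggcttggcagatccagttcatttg
The Sis window held 4 matches to TTTAT. Enpep held 2 matches to TTTAT, at 52 bases and 1 base before its start, and Mep1a held 1, at 13 bases past its start. Among all 27025 gene promoters of the table, 40.9% held TTTAT.

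Among the 8 promoters, TTTAT was found in 6 (Sis, Lct, Mgam, Enpep, Dpp4 and Mep1a) and TATAA in 6 (Sis, Lct, Mgam, Treh, Enpep and Dpp4), against 25.5% of all promoters for TATAA. These motifs can overlap, as they do in the Sis window. AGATAA, a site of Gata factors, lay in the promoters of Lct, Mgam and Dpp4 and in 11.4% of all promoters. CAAAGT, a core of Hnf4 sites, lay in those of Treh and Mep1a and in 14.3% of all promoters. The Anpep window held none of these letters. A match is a run of letters and was not tested for binding.

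The levels of the genes differed widely once divided by transcript length. Given as CPM per kb of exon, the mean level over 15 mice was 228.8 for Mep1a, 91.0 for Mep1b, 27.8 for Mgam, 13.8 for Dpp4, 8.14 for Enpep, 6.57 for Sis, 3.13 for Anpep, 0.305 for Treh and 0.0207 for Lct. Mep1a, Mep1b and Mgam each stood clear of the next gene in that order in all 15 mice. Dpp4 and Enpep, Enpep and Sis, and Sis and Anpep overlapped between mice, so their order was not beyond the spread. The level of Mgam depended on the transcript, since RefSeq gives it one of 11854 bases with 94 exons and one of 6488 bases with 48 exons. With the shorter length its level was 50.9 CPM per kb, still between Mep1b and Dpp4.

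**Figure D1:**
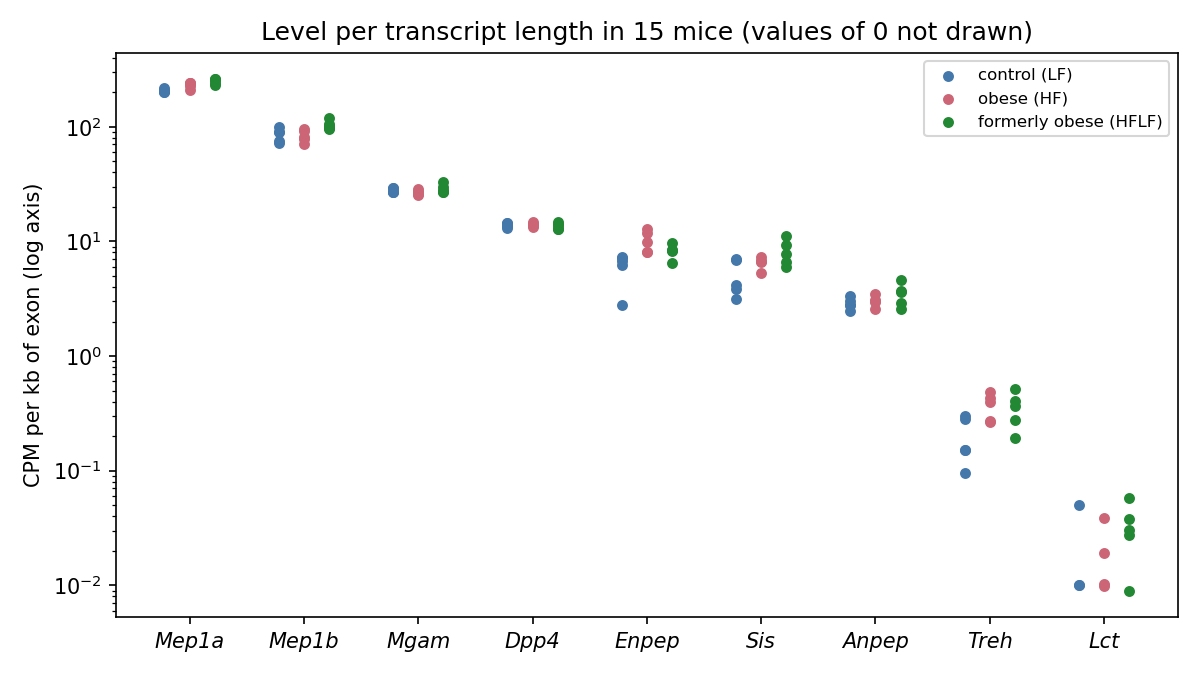
Level of each of the 9 genes in CPM per kb of exon (log axis), with one point per mouse and the 3 diet groups side by side. Mep1a lay between 199 and 263 CPM per kb, Mep1b between 71.3 and 118, and Lct at most at 0.0577.

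On the plain CPM scale, which compares a gene between mice, Mep1a was also the leading enzyme. Of the 12961 tested genes, 98.9% had a lower mean CPM than Mep1a, 96.2% than Mgam, 92.6% than Mep1b, 77.9% than Dpp4, 56.8% than Sis, 53.6% than Enpep, 30.4% than Anpep and 1.71% than Treh. The coefficient of variation within a group was 3.41% to 6.16% for Mep1a, 3.55% to 6.45% for Dpp4 and 4.10% to 9.14% for Mgam. For Sis it was 36.4% among control, 11.7% among obese and 25.8% among formerly obese mice, and for Enpep 30.8%, 21.2% and 13.8%.

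**Figure D2:**
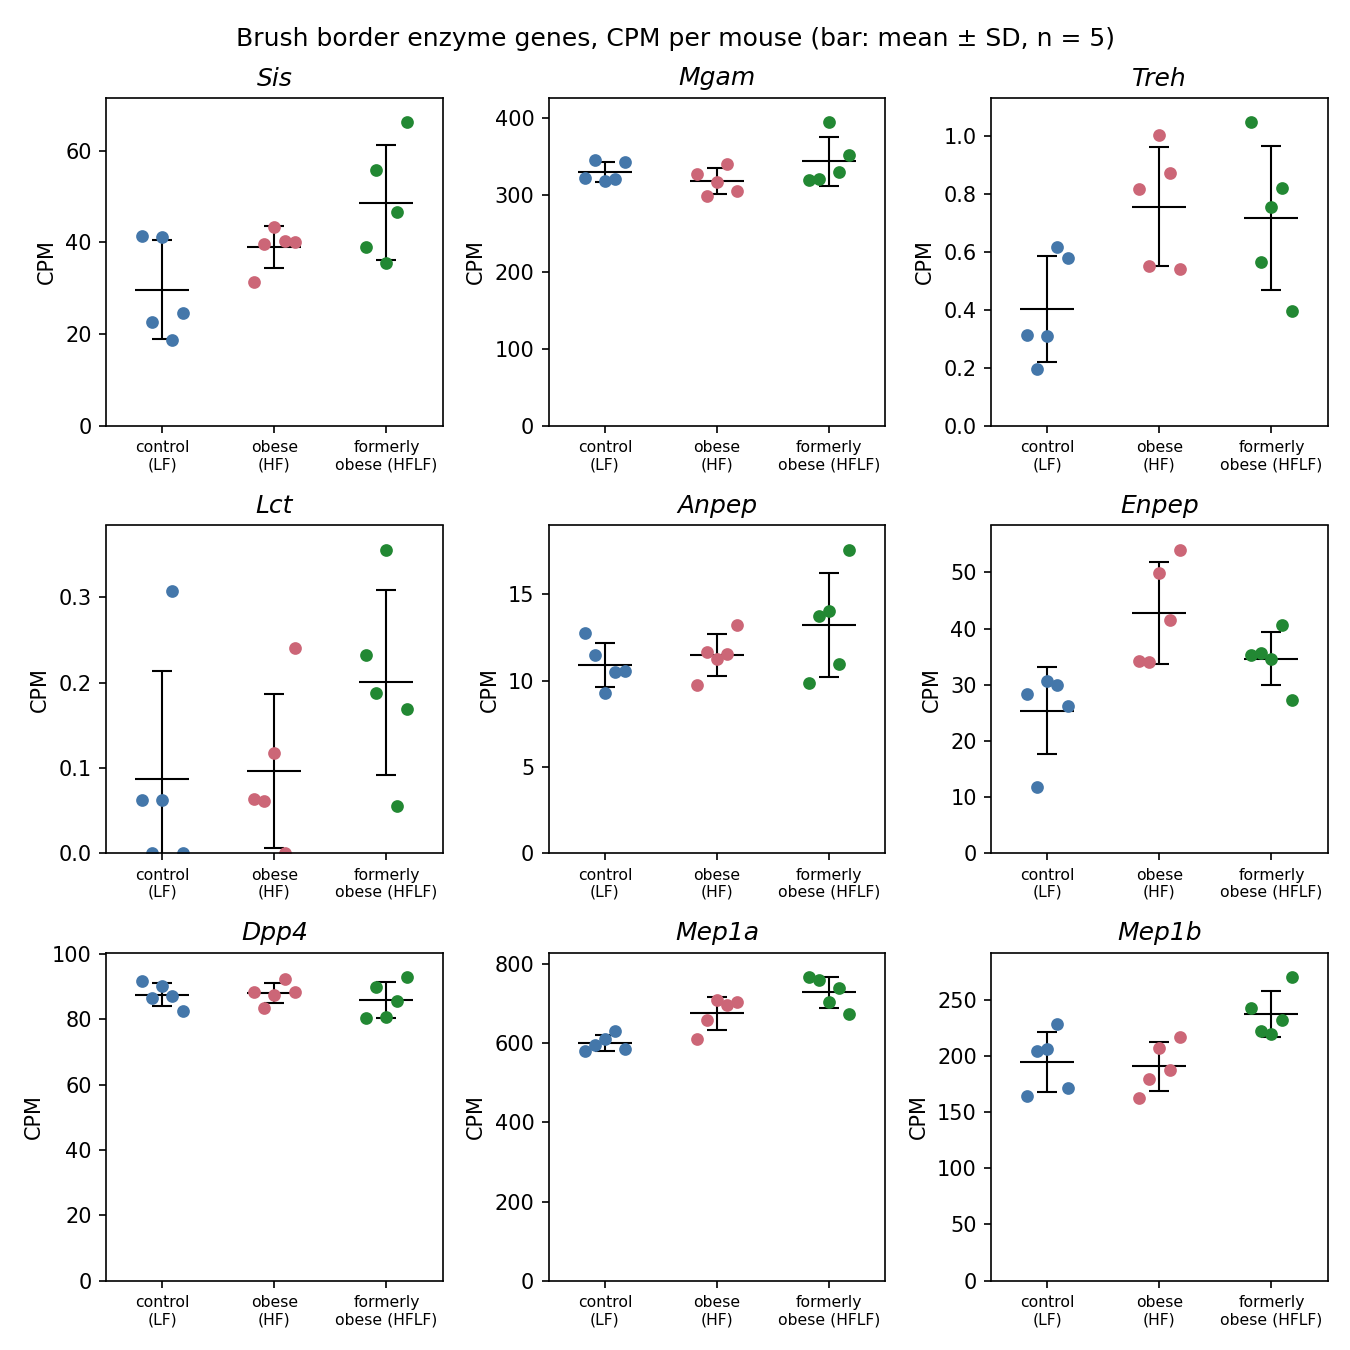
CPM of each gene per mouse (vertical axes start at 0), with the mean ± SD of 5 mice as a bar, cut at 0 for Lct. The obese mice lay above the control mice in Enpep, and the formerly obese mice lay above the control mice in Mep1a and above the obese mice in Mep1b.

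The 3 comparisons asked what differs with obesity, what differs from control after the return to the low-fat diet, and what differs between formerly obese and obese mice. A gene was called at a fold change over 1.2, p under 0.01 and an adjusted p under 0.25 in edgeR, which are the study's cutoffs. Between obese and control mice, 1.58% of all tested genes were called (0.718% higher, 0.864% lower), and of the 8 tested enzymes Enpep was. Between formerly obese and control mice, 3.72% were called (1.85% higher, 1.87% lower), and Sis, Mep1a and Mep1b were, all higher. Between formerly obese and obese mice, 2.65% were called (1.23% higher, 1.42% lower), and Mep1b was, again higher. Since the enzymes were chosen with these comparisons known, nothing is read from their share of calls. The control libraries serve in both comparisons with control mice, and the formerly obese libraries in both of theirs.

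The fitted log2 fold change was above 0 for 6 of the 8 enzymes in obese against control mice, for 7 in formerly obese against control mice and for 5 in formerly obese against obese mice. Over all tested genes, 50.1%, 49.8% and 51.0% were above 0. The median of the 8 enzymes was 0.12, 0.28 and 0.11, where the median over all tested genes was 0.00024, -0.00065 and 0.0023. Nothing is read from these counts and medians either, since the enzymes were chosen with the comparisons known. Treh passed the filter on low counts with 3 to 18 counts per library. In a bulk sample, more cells of a type and more RNA per cell cannot be told apart, which holds for each difference below.

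**Figure D3:**
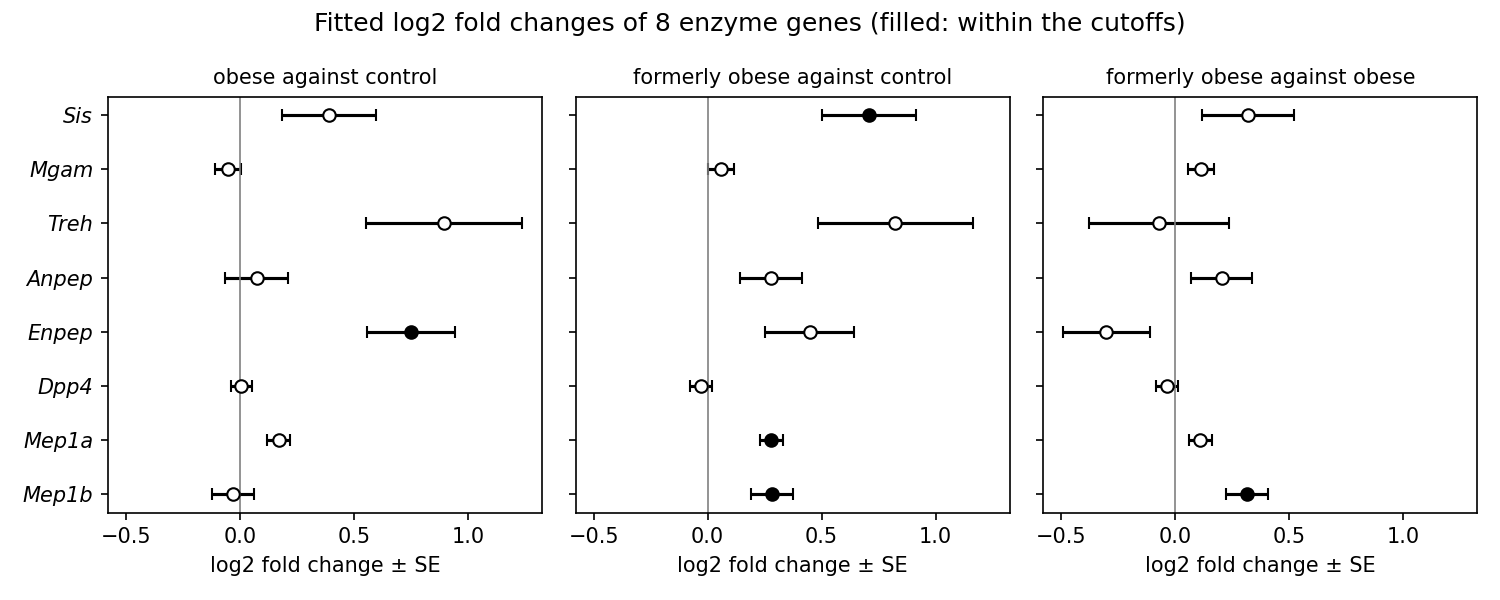
Fitted log2 fold change with its standard error for the 8 tested enzymes in the 3 comparisons, with filled points for genes within the cutoffs. Enpep stood at 0.75 in obese against control mice, and Sis at 0.71, Mep1a at 0.28 and Mep1b at 0.28 in formerly obese against control mice.

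Sis (Entrez gene 69983, mm10 chromosome 3, 72888560 to 72966866, minus strand) encodes sucrase-isomaltase, which splits sucrose and the branch points of starch. The control mice were at 41.5, 22.7, 41.1, 18.6 and 24.6 CPM in order of replicate number. The obese mice were at 31.3, 39.7, 43.4, 40.2 and 40.1 CPM, and the formerly obese mice at 39.1, 55.8, 35.5, 46.6 and 66.3 CPM. Control replicates 2, 4 and 5 lay at or below 24.6 CPM and control replicates 1 and 3 at or above 41.1 CPM, and the groups overlapped in each comparison. The means were 29.7 ± 10.8, 39.0 ± 4.55 and 48.7 ± 12.6 CPM (SD, n = 5). The log2 fold change was 0.39 (SE 0.21) in obese against control mice, 0.71 (SE 0.20) in formerly obese against control mice and 0.32 (SE 0.20) in formerly obese against obese mice. The call against control mice was lost without formerly obese replicate 5, the highest mouse, at a log2 fold change of 0.57.

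Mgam (Entrez gene 232714, chromosome 6, 40628831 to 40769123, plus strand) encodes maltase-glucoamylase, which releases glucose from starch fragments and is the closest relative of sucrase-isomaltase among these enzymes. Control mice were at 329.5 ± 13.5 CPM, obese mice at 317.6 ± 16.7 and formerly obese mice at 343.3 ± 31.4 (SD, n = 5). Formerly obese replicate 3 was at 394.2 CPM, and all other mice lay between 298.8 and 352.1 CPM. The log2 fold changes were -0.05, 0.06 and 0.11 (SE 0.06 each), and the groups overlapped in every comparison.

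Treh (Entrez gene 58866, chromosome 9, 44673233 to 44686305, plus strand) encodes trehalase, which splits the fungal and insect sugar trehalose. It had 5, 3, 5, 10 and 9 counts in the control mice, 13, 9, 17, 14 and 9 in the obese mice and 18, 9, 17, 15 and 7 in the formerly obese mice. Summed over a group this was 0.404 CPM of unscaled totals in control mice (exact Poisson 95% interval 0.276 to 0.570). It was 0.763 in obese mice (0.585 to 0.979) and 0.714 in formerly obese mice (0.552 to 0.908). The intervals cover counting error only. The log2 fold changes against control mice were 0.90 (SE 0.34) and 0.82 (SE 0.34), which did not meet the cutoffs. The obese comparison met them without control replicate 4 (log2 1.10), and the formerly obese comparison without formerly obese replicate 5 (log2 0.97). The far end of Treh nearly touches the opposite-strand gene Phldb1, and the strand setting of the counting was not given in the sources used here.

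Lct (Entrez gene 226413, chromosome 1, 128284764 to 128328318, minus strand) encodes lactase, the enzyme of milk sugar digestion. It had 34 counts in all 15 libraries together, with 0 to 5 in control mice, 0 to 4 in obese mice and 1 to 8 in formerly obese ones. The summed rate was 0.0884 CPM of unscaled totals in control mice (exact Poisson 95% interval 0.0355 to 0.182), 0.0985 in obese mice (0.0425 to 0.194) and 0.205 in formerly obese mice (0.124 to 0.321). The 3 intervals, which cover counting error only, overlapped, and Lct was not tested because it did not pass the filter.

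Enpep (Entrez gene 13809, chromosome 3, 129269177 to 129332749, minus strand) encodes glutamyl aminopeptidase, which removes acidic residues from the front of peptides, angiotensin among them. The control mice were at 28.4, 11.7, 30.6, 29.9 and 26.2 CPM in order of replicate number. The obese mice were at 34.2, 34.0, 49.8, 41.5 and 54.0 CPM, and the formerly obese mice at 35.2, 35.7, 34.5, 40.6 and 27.3 CPM. Every obese mouse lay above every control mouse, a pattern that 1.21% of all tested genes showed. The formerly obese mice overlapped with both other groups. The means were 25.4 ± 7.81, 42.7 ± 9.06 and 34.7 ± 4.77 CPM (SD, n = 5).

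For Enpep, the log2 fold change was 0.75 (SE 0.19) in obese against control mice, 0.45 (SE 0.20) in formerly obese against control mice and -0.30 (SE 0.19) in formerly obese against obese mice. Control replicate 2 stood far below the other control mice. Without it the obese value was 0.57 and still within the cutoffs. The call was lost when obese replicate 3, 4 or 5 was left out, at log2 fold changes of 0.69, 0.76 and 0.65.

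Anpep (Entrez gene 16790, chromosome 7, 79821803 to 79842352, minus strand) encodes aminopeptidase N, which removes neutral residues from peptides. It was at 9.30 to 12.8 CPM in control mice, 9.75 to 13.2 in obese mice and 9.84 to 17.6 in formerly obese mice. The means were 10.9 ± 1.29, 11.5 ± 1.23 and 13.2 ± 3.02 CPM (SD, n = 5), and the groups overlapped. The log2 fold changes were 0.07 (SE 0.14), 0.28 (SE 0.13) and 0.20 (SE 0.13).

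Dpp4 (Entrez gene 13482, chromosome 2, 62330073 to 62412231, minus strand) encodes dipeptidyl peptidase 4, which clips dipeptides off peptides and inactivates incretin hormones. Control mice were at 87.6 ± 3.61 CPM, obese mice at 88.0 ± 3.13 and formerly obese mice at 85.9 ± 5.54 (SD, n = 5). The log2 fold changes were 0.01, -0.03 and -0.04 (SE 0.05 each). All 15 mice lay between 80.4 and 92.9 CPM.

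Mep1a (Entrez gene 17287, chromosome 17, 43474329 to 43502773, minus strand) encodes the alpha subunit of meprin, the most abundant of these enzymes. The control mice were at 581, 597, 611, 631 and 585 CPM in order of replicate number. The obese mice were at 611, 658, 710, 698 and 704 CPM, and the formerly obese mice at 768, 761, 706, 740 and 674 CPM. All formerly obese mice lay above all control mice, as they did for 1.75% of tested genes, while the obese mice overlapped with both. The means were 601.1 ± 20.5, 676.1 ± 41.6 and 729.6 ± 39.4 CPM (SD, n = 5). The log2 fold change was 0.17 (SE 0.05) in obese and 0.28 (SE 0.05) in formerly obese against control mice, and 0.11 (SE 0.05) in formerly obese against obese mice. The obese value lay under the fold cutoff of 1.2, and the formerly obese call was lost without formerly obese replicate 1 (log2 0.26), which also fell under it.

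Mep1b (Entrez gene 17288, chromosome 18, 21072344 to 21100199, plus strand) encodes the beta subunit, which anchors the enzyme in the membrane. The control mice were at 165, 204, 207, 229 and 171 CPM and the obese mice at 163, 180, 208, 188 and 218 CPM. The formerly obese mice were at 243, 222, 220, 233 and 270 CPM. All of them lay above all obese mice, as they did for 1.49% of tested genes, and they overlapped with control replicate 4. The means were 195.1 ± 26.7, 191.2 ± 21.8 and 237.6 ± 20.5 CPM (SD, n = 5).

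The log2 fold change of Mep1b was -0.03 (SE 0.09) in obese against control mice, 0.28 (SE 0.09) in formerly obese against control mice and 0.31 (SE 0.09) in formerly obese against obese mice. The call against control mice was lost without control replicate 1 (log2 0.22) or 5 (log2 0.24), or formerly obese replicate 1 (log2 0.28) or 5 (log2 0.23). The call against obese mice was lost without obese replicate 1 (log2 0.26) or 2 (log2 0.29), or formerly obese replicate 5 (log2 0.26). Of 7 colonocyte markers, 2 were above 0 in obese against control mice and 7 in each comparison of formerly obese mice. They summed to 7156 to 13726 CPM in control, 7843 to 12750 in obese and 10864 to 16333 in formerly obese mice. Car1, called in no comparison, gave the largest part, with means of 4103, 4634 and 7129 CPM. The part of these markers in the meprin difference was not tested.

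Other hydrolases of the brush border were compared across all genes tested. Of the list, 10 of 14 passed the filter on low counts, and 6, 4 and 1 of them were above 0 in the 3 comparisons, with medians of 0.13, -0.08 and -0.24 on the log2 scale. In obese mice, 3 rose and 0 fell by edgeR, and DESeq2 called the same 3. Unadjusted, 4 had p under 0.05 by edgeR, the other gene being Ace, which was lower in obese mice. Ace was at 56.5 ± 12.6 CPM in obese against 69.8 ± 8.73 in control mice (edgeR adjusted p = 0.37, log2 -0.30). Ggt1, a gamma-glutamyl transferase of glutathione breakdown, rose from 4.15 ± 1.07 to 7.82 ± 2.32 CPM (SD, n = 5; edgeR adjusted p = 0.111; log2 0.91). Naaladl1, a peptidase, rose from 132.7 ± 15.7 to 185.1 ± 21.6 CPM (edgeR adjusted p = 0.148; log2 0.48). Alpi, intestinal alkaline phosphatase, rose from 29.9 ± 10.7 to 47.1 ± 10.0 CPM in obese mice (edgeR adjusted p = 0.238; log2 0.65).

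In formerly obese against control mice, 2 of these hydrolases rose and 1 fell. Alpi was at 46.3 ± 11.3 CPM (edgeR adjusted p = 0.122; log2 0.63). Dpep1, a membrane dipeptidase, rose from 388.3 ± 59.8 to 489.2 ± 71.0 CPM (edgeR adjusted p = 0.0894; log2 0.33) and also stood above the 339.1 ± 17.6 CPM of obese mice (edgeR adjusted p = 0.0433; log2 0.53). Ace, which converts angiotensin, fell from 69.8 ± 8.73 to 53.9 ± 5.58 CPM (edgeR adjusted p = 0.119; log2 -0.37). The duodenal enteropeptidase gene Tmprss15 and the gene of the sphingomyelinase Enpp7 were at 0 counts in every library.

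**Figure D4:**
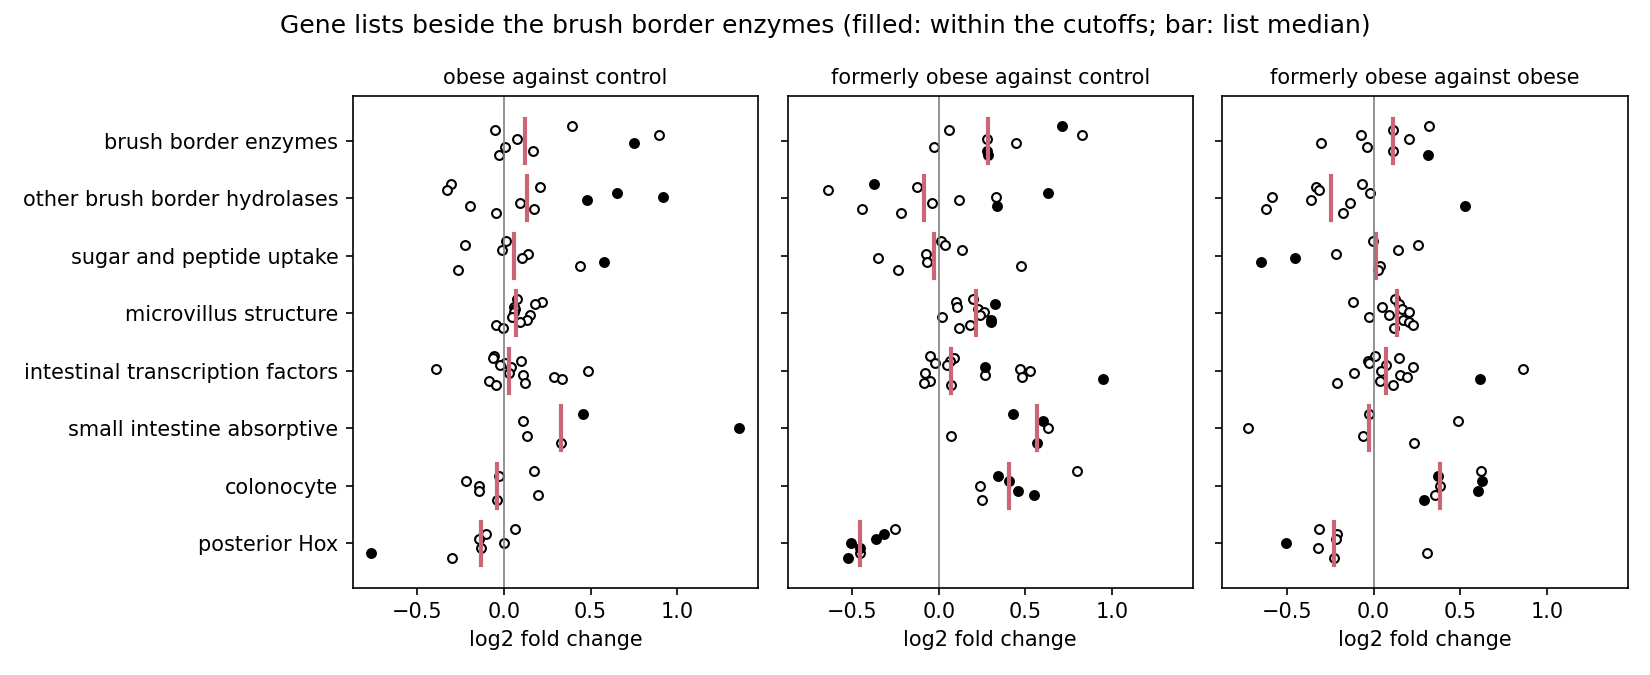
Fitted log2 fold change of each tested gene of the enzymes and of 7 other lists, with list medians as bars and filled points for called genes. The microvillus and colonocyte genes lay above 0 in formerly obese against control mice, at medians of 0.21 and 0.41, and the posterior Hox genes below, at -0.45.

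Carriers that take up the products of these enzymes were measured beside them. Of 9 genes, 8 were tested, and 5, 4 and 4 were above 0 in the 3 comparisons. Slc5a1, the sodium-glucose cotransporter, was at 332.4 ± 14.3, 335.9 ± 14.5 and 334.9 ± 18.4 CPM in control, obese and formerly obese mice (log2 0.01 in each comparison with control). Slc7a9, a carrier of cystine and basic amino acids, rose from 17.0 ± 2.30 to 25.3 ± 2.93 CPM in obese mice (edgeR adjusted p = 0.225; log2 0.58). It fell against obese mice to 16.2 ± 5.61 CPM in formerly obese mice (edgeR adjusted p = 0.109; log2 -0.65). Slc6a20a, a carrier of proline, fell from 12.4 ± 1.38 to 9.09 ± 1.72 CPM between these groups (edgeR adjusted p = 0.139; log2 -0.45). No uptake gene was called in formerly obese against control mice in edgeR or DESeq2, with 3 at an unadjusted p under 0.05, and the smallest adjusted p was 0.174 for Slc3a1 (log2 0.48), the partner of Slc7a9.

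The microvillus itself was represented by 12 genes of its actin core and tip links. All 12 were above 0 in formerly obese against control mice (median 0.21 on the log2 scale). By edgeR, 8 had an unadjusted p under 0.05, and 3 were called. Eps8, an actin capping protein of microvillus tips, rose from 181.2 ± 9.62 to 227.3 ± 13.9 CPM (edgeR adjusted p = 0.0209; log2 0.33). Anks4b, a scaffold of the tip link complex, rose from 139 ± 7.20 to 171.4 ± 9.10 CPM (edgeR adjusted p = 0.0221; log2 0.30). Pls1, an actin bundler, rose from 347 ± 38.7 to 426.9 ± 38.6 CPM (edgeR adjusted p = 0.0618; log2 0.30). Myo7b, Cdhr2 and Cdhr5 had smaller edgeR adjusted p (0.0301, 0.0304 and 0.0381). They were not called because they lay under the fold cutoff (log2 0.23, 0.26 and 0.24). In obese against control mice, 10 of 12 were above 0 (median 0.07) and none was called by edgeR or DESeq2. Here 3 had an unadjusted p under 0.05, the smallest adjusted p being 0.268 for Eps8. In formerly obese against obese mice, 10 of 12 were above 0 (median 0.14). There 7 had an unadjusted p under 0.05 by edgeR, and 0 were called by edgeR or DESeq2.

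Among 15 transcription factors of the gut epithelium, 2 rose in formerly obese against control mice by edgeR, where 3 had an unadjusted p under 0.05. DESeq2 called 3, these 2 among them. In formerly obese against obese mice, 5 had an unadjusted p under 0.05 by edgeR, and edgeR and DESeq2 each called 1. Hnf4g, a nuclear receptor of enterocytes, rose from 72.1 ± 3.91 to 86.7 ± 11.3 CPM (edgeR adjusted p = 0.0762; log2 0.27). Prdm1, a repressor active in the immature gut, rose from 1.75 ± 0.313 to 3.39 ± 0.744 CPM (edgeR adjusted p = 0.0253; log2 0.95) and was also called against the 2.21 ± 0.438 CPM of obese mice (edgeR adjusted p = 0.152; log2 0.61). Cdx2 and Gata4, known regulators of sucrase-isomaltase, gave log2 fold changes of 0.09 and 0.47 in formerly obese against control mice (edgeR adjusted p = 0.715 and 0.583). Their levels in control mice were 266.3 ± 38.2 and 0.929 ± 0.392 CPM.

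Markers of other gut regions were measured beside the enzymes. Of 9 absorptive genes of the small intestine, 5 were tested and all 5 were above 0 in both comparisons with control mice. In formerly obese against obese mice, 2 of them were above 0 (median -0.03 on the log2 scale). Apob rose to 556.9 ± 60.3 CPM in obese and 546.8 ± 110 in formerly obese mice from 406.6 ± 28.7 (edgeR adjusted p = 0.142 and 0.0653; log2 0.45 and 0.43). Fabp6, the ileal bile acid binding protein, rose from 22.3 ± 4.74 to 57.1 ± 32.8 CPM in obese mice (edgeR adjusted p = 0.0678; log2 1.36). Fabp2 rose from 372 ± 126 to 563 ± 131 CPM and Rbp2 from 12.6 ± 3.12 to 18.6 ± 2.71 CPM in formerly obese mice (edgeR adjusted p = 0.12 and 0.0441; log2 0.60 and 0.56). Apoa1, Apoa4, Apoc3 and Fabp1 did not pass the filter on low counts. The part of these markers in the enzyme values was not tested.

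Of 7 colonocyte markers, 4 rose in formerly obese against control mice, namely Car4, Slc26a3, Cyp2c55 and Krt20 (log2 0.34 to 0.55). Car4, Slc26a3, Cyp2c55 and Guca2a rose against obese mice (log2 0.29 to 0.62). Of 7 posterior Hox genes, which are expressed toward the rectum, 5 fell in formerly obese against control mice, namely Hoxa13, Hoxb13, Hoxd10, Hoxd11 and Hoxd13 (log2 -0.52 to -0.31). Hoxb13 was the most abundant of them, at 353.2 ± 29.8 CPM in control and 275.2 ± 30.3 in formerly obese mice (edgeR adjusted p = 0.0303). Hoxd12 fell in obese mice (edgeR adjusted p = 0.184; log2 -0.76), and Hoxd10 fell in formerly obese against obese mice (edgeR adjusted p = 0.197; log2 -0.51). The summed Hox level was 436.6 to 538.7 CPM in control, 377.9 to 497 in obese and 310 to 410.9 in formerly obese mice, and its part in the enzyme values was not tested.

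Paneth cell genes were mixed in level and direction. Lyz1 rose from 0.824 ± 0.308 to 3.19 ± 1.01 CPM in obese mice (edgeR adjusted p = 0.0468; log2 1.95) and fell again to 0.903 ± 0.577 in formerly obese mice (edgeR adjusted p = 0.0468; log2 -1.81). Itln1 fell in obese mice (edgeR adjusted p = 0.182; log2 -1.11) and rose in formerly obese against obese mice (edgeR adjusted p = 0.0582; log2 1.41), as did Ang4 (50.3 ± 16.5 to 112.2 ± 61.6 CPM, against 86.6 ± 43.2 in control mice; edgeR adjusted p = 0.193; log2 1.16). The tuft cell genes Dclk1 and Trpm5 rose in formerly obese against control mice (edgeR adjusted p = 0.132 and 0.0902; log2 0.32 and 0.41), and the enteroendocrine gene Pyy fell against obese mice (edgeR adjusted p = 0.163; log2 -0.35).

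No goblet, stem, immune, fibroblast or endothelial marker was called by edgeR or DESeq2 in any comparison. Unadjusted, 2 of 4 fibroblast genes in formerly obese against control mice and the endothelial gene Pecam1 in formerly obese against obese mice had p under 0.05, and 0 of the 5 goblet, 3 stem and 6 immune genes did in any comparison. In the order of the 3 comparisons, the goblet genes Agr2 (log2 -0.07, 0.10 and 0.17) and Tff3 (0.05, -0.11 and -0.16) had the smallest p of their list. Of the stem cell genes these were Smoc2 (0.07, -0.04 and -0.11) and Ascl2 (0.04, -0.14 and -0.19). Of the immune genes they were the leukocyte gene Ptprc (0.44, 0.50 and 0.06) and the T cell gene Cd3g (0.49, 0.45 and -0.04). Of the fibroblast genes they were the matrix genes Dcn (0.90, 1.21 and 0.31) and Col3a1 (0.59, 1.36 and 0.77), and Pecam1 gave log2 -0.35, 0.13 and 0.48. Immune markers summed to 17.1 to 33.4 CPM in control, 23.7 to 51.8 in obese and 20.6 to 47.5 in formerly obese mice. Fibroblast markers summed to at most 30.1 CPM, endothelial markers to 8.74 and smooth muscle markers to 2.26. Of 3 adipocyte genes, Adipoq alone had counts, at most 0.113 CPM. Of the pancreas list, Cela1 alone was tested, at 507.5 ± 70.0 CPM in control mice, with Cpa1 and Pnlip at 0, and it fell in formerly obese mice (edgeR adjusted p = 0.0276; log2 -0.49).

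Of the 45 calls in the lists other than the enzymes, 18 held whichever library was left out. These were Fabp6 and Lyz1 in obese against control mice, and Eps8, Anks4b, Prdm1, Apob, Rbp2, Car4, Hoxb13, Hoxd13 and Cela1 in formerly obese against control mice. In formerly obese against obese mice they were Dpep1, Slc7a9, Lyz1, Itln1, Car4, Slc26a3 and Cyp2c55. The other 27 calls were lost without 1 library or more, and those of Fabp2 in formerly obese against control mice and Ang4 were lost in DESeq2 as well. Losses ran from 1 of 10 leave-outs (Pls1 and Krt20) to 9 of 10 (Slc7a9 in obese against control mice). The Alpi calls were lost in 8 of 10 in obese and 7 of 10 in formerly obese against control mice.

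Whether the enzymes varied together among mice of one diet was tested after each group mean had been subtracted, a measure that the choice of genes did not use. The 8 tested enzymes formed 28 pairs, of which 14 had a Pearson r above 0, with a median r of 0.0019. After adjustment over the pairs, 0 were under 0.05 by Pearson or Spearman in permutation tests (the smallest adjusted p was 0.29 by Pearson and 0.174 by Spearman). Unadjusted, 3 pairs were under 0.05 by each measure. A common rise and fall of the enzymes among mice of one diet was thus not detectable with 15 mice.

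Sis and Dpp4 gave the highest r (r = 0.69, permutation p = 0.0109, adjusted 0.29; rho = 0.69, permutation p = 0.0106, adjusted 0.174; n = 15), and r was 0.74 without the 2 mice farthest from the median of Sis. Treh and Anpep ran opposite to each other (r = -0.63, permutation p = 0.0207, adjusted 0.29; rho = -0.69, permutation p = 0.0124, adjusted 0.174), with r = -0.50 without the 2 farthest mice. Treh rests on few counts. Enpep and Mep1a gave r = 0.46 (permutation p = 0.0492, adjusted 0.441; rho = 0.53, permutation p = 0.0531, adjusted 0.372) and r = 0.71 without 2 mice.

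The meprin subunits Mep1a and Mep1b gave r = 0.48 (permutation p = 0.0787, adjusted 0.441; rho = 0.56, permutation p = 0.0391, adjusted 0.365). Without the 2 mice farthest from the median of Mep1a, r was 0.77. Formerly obese replicate 5 ran against this pair, since it had the lowest Mep1a and the highest Mep1b of its group. Without it r was 0.82 (n = 14). That mouse was singled out after the values were seen, so this r is a description and no test. The pair of starch-digesting genes, Sis and Mgam, gave r = -0.30 (permutation p = 0.294, adjusted 0.634; rho = -0.29, permutation p = 0.301, adjusted 0.603), and r = -0.42 without 2 mice.

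**Figure D5:**
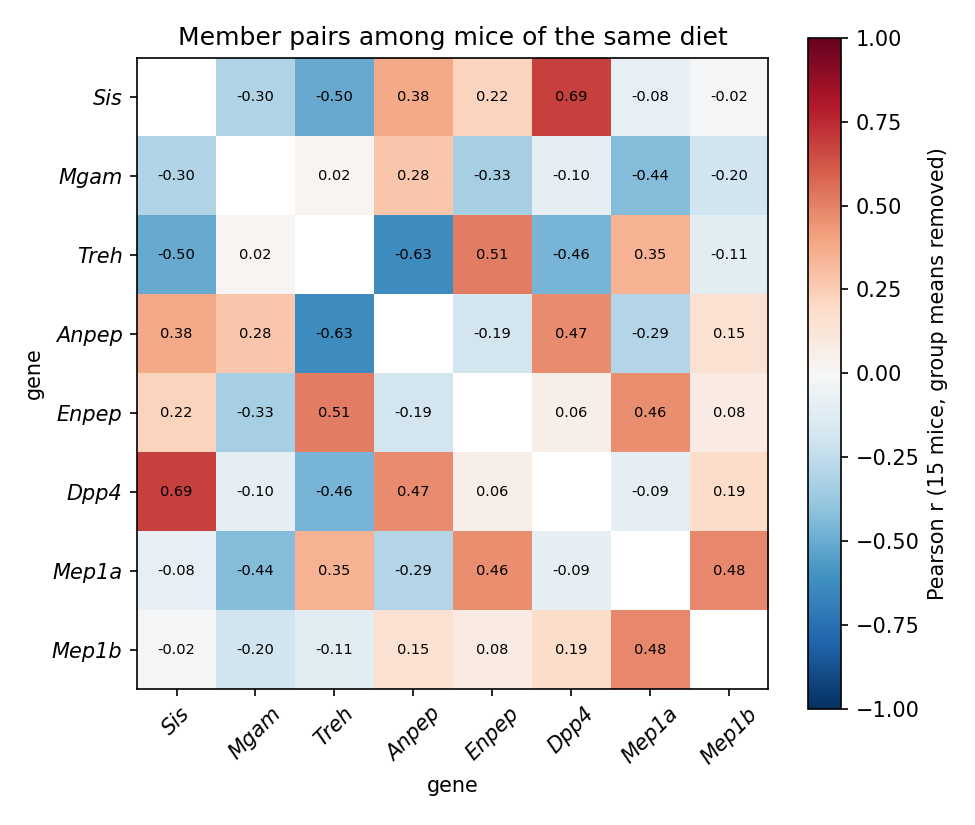
Pearson r between pairs of the 8 tested enzymes over 15 mice, after the mean of each diet group was removed. Both signs occur equally often, with r = 0.69 for Sis with Dpp4 and r = -0.63 for Treh with Anpep at the ends.

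As a description, each enzyme was set beside the mean log2 CPM of the other lists in the same 15 mice, within groups. Mep1b went with the microvillus list (r = 0.77), the colonocyte list (r = 0.76) and the list of small intestinal absorptive genes (r = 0.64). With the same lists Mep1a gave r = 0.52, 0.46 and 0.48. Sis had the opposite sign for each of these lists (r = -0.27, -0.34 and -0.18) and its highest r with the goblet list (0.64) and the uptake list (0.60). Dpp4 had its highest r with the Paneth list (0.67), and Enpep with the transcription factor list (0.62). Mgam gave -0.67 with the other hydrolases. The values of one library enter both sides of each r.

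Genes of like pattern were looked up over the same within-group deviations, among genes with a mean of at least 50 counts. With the mean of the 8 enzymes, whose own members reached r between -0.02 and 0.60, the 10 genes of highest r were Ctnnb1 (0.87), Exosc2, Mob4, Tspan6, Xpnpep3, Prps2, Slc10a2, Mrps31, Yme1l1 and Phf6 (0.78). With Sis alone they were Zfp617 (0.89), Ccl6, Syt7, Thbs1 and Sepn1 (0.87). These r values come from a search over all tested genes in 15 mice and are given with no test.

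Methylation near the enzymes came from the list of differentially methylated regions (DMRs) between obese and control mice by whole-genome bisulfite sequencing. The list gives a position and a direction for 8199 regions, 4123 with more and 4076 with less methylation in obese mice, and no value per mouse. Within 100 kb of the gene start, 5 of the 9 enzymes had a DMR, against 56.1% of the tested genes. Within 10 kb this was 1 enzyme, Enpep, against 9.59%, and within 50 kb it was 5 against 34.9%. None lay within 100 kb of Sis, Lct, Dpp4 or Mep1b.

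The DMRs of Enpep and Mep1a are shown with 40 bases on each side, on the plus strand of GRCm38, because these enzymes were called in RNA-seq. Enpep was called in obese against control mice, the comparison of the DMRs. Mep1a was called only in formerly obese against control mice. The capitals mark the CpG sites inside the DMR.
Enpep, more methylated in obese mice (chr3:129338479-129338574): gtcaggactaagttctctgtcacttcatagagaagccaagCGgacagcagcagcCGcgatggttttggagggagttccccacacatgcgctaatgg
Mep1a, less methylated in obese mice (chr17:43490623-43490706): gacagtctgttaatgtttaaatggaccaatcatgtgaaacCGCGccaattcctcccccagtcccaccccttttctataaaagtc
The Enpep DMR spans 16 bases (chr3:129338519-129338534) and lies 5.77 kb upstream of the gene start. The Mep1a DMR spans 4 bases (chr17:43490663-43490666) in an intron, 12.1 kb from the gene start. Each holds 2 CpG sites.

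Mgam held a DMR with more methylation that overlaps an exon (chr6:40669646-40669787), 40.8 kb from its start. Anpep had one with less methylation downstream of the gene (chr7:79802211-79802232), 40.1 kb from its start in the count table. Treh had one with less methylation 26.3 kb upstream (chr9:44646908-44646940) and one with more methylation downstream, 64.4 kb from its start (chr9:44737658-44737681). Enpep was thus the enzyme with the nearest DMR and the one called between obese and control mice, where its RNA was higher. With one gene and no methylation value per mouse, a relation between them was not tested.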

How the data were processed

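RNA-seq libraries came from a stranded mRNA kit. The submitters' processing notes name cutadapt, TopHat2 2.0.4 and HTSeq with the mm10 build, and the authors deposited raw counts per gene, 1 column per mouse. The annotation release and the strand setting were not given in the sources used here. For whole-genome bisulfite sequencing, the authors deposited a list of regions (start, end and direction), with no value per mouse. Deposited tables of the authors' own fold changes and p-values, and amplicon methylation with no CpG within 100 kb of a gene of the set, were not used.

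Counts were fitted in edgeR 4.0.16 (R 4.3.3) with filterByExpr, TMM scaling and a quasi-likelihood test over all 15 libraries, with group as the only term. That left 12961 of 24918 entries, and p-values were adjusted over all of these by Benjamini-Hochberg. CPM (counts scaled to library size) were set on TMM-scaled library sizes, and their log2 values had a prior count of 2 added. Depth was 15230391 to 22762095 counts per library. Lengths came from curated RefSeq transcripts. Within-group correlations used 100000 permutations of mice within groups in numpy 2.4.6, two-sided. Both were tested on simulated data. DMR starts were converted to 1-based positions. Other gene entries of the same name (369 names) were kept apart.

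The 9 genes and the gene lists were chosen with earlier results of these data known. The genes named from other lists were those called in any comparison, or the 2 with the smallest p where none was called. Slc5a1, Slc3a1, Cdx2, Gata4, Car1, Myo7b, Cdhr2 and Cdhr5 fall outside this rule and were chosen after their values were seen. The same holds for the marker genes named for values at or near 0 counts. The genes of like pattern were the 10 with the highest r with the mean of the set and the 5 with the highest r with Sis. Values of 1 transcription factor are not reported here. No label gives a batch. Alternatives were DESeq2 1.42.0, other scalings and low-count filters, a stricter cutoff, the compared groups alone, the replicate number as a block, removal of each library's GC trend (chosen after seeing the data) and leaving out each library.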

Additional observations from a re-analysis of the deposited data

Results flagged for a closer look

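In Enpep, control replicate 2 (11.7 CPM) stood apart from the other control mice (26.2 to 30.6 CPM), with a gap of 0.768 of the group's range. In Lct, control replicate 4 (5 counts) stood apart from the other control mice (0 or 1 count), with a gap of 0.798. Obese replicate 5 stood apart in the summed transcription factor list (4162 CPM against 3955 to 4011, a gap of 0.731) and in the summed immune list (51.8 CPM against 23.7 to 29.8, a gap of 0.782). In the adipocyte list, obese replicate 2 and formerly obese replicate 5 held the only counts of their groups (0.0611 and 0.113 CPM, a gap of 1 in each). Obese replicate 5 was also the highest of its group in Enpep (54.0 CPM), and the Enpep call was lost without it. Of 83 groups of 5 values looked at, 6 showed such a gap. About 1 in 20 would by chance if values were normally distributed, which does not hold for the near-zero adipocyte and Lct values.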

How the results depend on the processing

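With all libraries kept, DESeq2, other scalings, other low-count filters, the compared groups alone and removal of the GC trend left the number of enzymes called at 1, 3 and 1 in obese against control, formerly obese against control and formerly obese against obese mice. The cutoff of adjusted p at 0.05 alone gave 0, 1 (Mep1a) and 0 enzymes, and 16, 282 and 25 genes in all in place of 205, 482 and 343. Leaving out a replicate gave 0 to 2, 1 to 3 and 0 to 1 enzymes and 40 to 331, 362 to 660 and 167 to 400 genes. The number of enzymes above 0 then stayed at 5 to 7, 7 to 7 and 5 to 6. Pairs of enzymes under an adjusted 0.05 numbered 0 to 1 on leaving out a replicate. A window of 10 kb in place of 100 kb gave 1 enzyme with a DMR in place of 5. With the replicate number as a block (replicate block), 1, 3 and 1 enzymes were called, and 252, 537 and 346 genes in all. Same-numbered mice did not deviate together, with correlations from -0.22 to 0.36, so the numbers were not taken as pairs. Removing the GC trend moved the higher and lower calls in formerly obese mice from 240 and 242 to 249 and 203 against control mice, and from 159 and 184 to 132 and 121 against obese mice. Log2 fold changes near 0 (Dpp4 and Mep1b in obese against control mice, Treh in formerly obese against obese mice) changed sign in 7 fits, none of them called. Of the 45 calls in the other lists, 34 were lost at an adjusted p of 0.05, 7 under removal of the GC trend, 6 with the compared groups alone, 4 under the block and 2 each in DESeq2 and under upper-quartile scaling. Depth limits Lct and Treh.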
